A study of Mus musculus with 6 samples.

Results

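The genes described here encode the enzymes and transporters that carry glucose carbon through glycolysis, lactate formation and export, glycogen turnover and the pentose phosphate pathway. They were taken from a list of 38 genes, and every probe set of the array that the platform annotation gives to exactly 1 of these genes was used. A probe set is the group of short probes that together measure 1 transcript. The list was covered by 67 of the 45101 probe sets of the array, for 33 of the 38 genes. Probe sets other than array controls named 18193 genes alone, 32 of them from the list. Gapdh was named alone by array controls only. Gpi1, Pfkfb1, Eno1, Galk1 and G6pdx were named by no probe set alone and were not analysed here.

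RNA was measured in murine 3T3-L1 cells, a fibroblast-like line that can be turned into fat-storing adipocytes in culture. The control group was 3 arrays of untreated cells and the other group 3 arrays of cells treated with resveratrol, a plant polyphenol. Both groups were the same line, and the labels give no genotype, dose, treatment time or state of differentiation. Nothing in the labels says that each array had its own culture, or that cultures were set up on separate occasions. Each p-value thus rests on the spread among these 6 arrays alone, which may be technical.

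Glycolysis splits glucose into pyruvate in the cytosol and yields ATP without oxygen. Lactate dehydrogenase interconverts pyruvate and lactate, which leaves or enters the cell through monocarboxylate transporters. Glycogen is the branched store of glucose, and the pentose phosphate pathway makes NADPH, which adipocytes use to build fatty acids, and ribose for nucleotides. Many glycolytic genes are known targets of the hypoxia-inducible factors, which bind the core letters ACGTG or GCGTG.

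The adipocyte markers were well measured in both groups. Fabp4, which carries fatty acids in these cells, had mean intensities of 11745 and 9926 in the control and resveratrol groups, and Adipoq, the hormone adiponectin, had 8620.2 and 6840.2. Of 9 adipocyte markers tested, 4 were lower with resveratrol (Cd36, Cidec, Retn and Slc2a4) and none was higher, and their summed level was 42366 to 60958 on the control arrays and 39204 to 47127 on the resveratrol arrays. The 6 preadipocyte and fibroblast markers summed to 17661 to 20407 and 16778 to 20457, and of the 5 tested 1, Thy1, was higher. The 7 macrophage markers summed to 285 to 356 on the control arrays and 375 to 423 on the resveratrol arrays, the 6 muscle markers to 151 to 177 and 157 to 207, and the 5 hepatocyte markers to 55.0 to 89.5 and 56.9 to 71.0. Among the macrophage markers Cd14 was higher, and Ptprc and Aif1 were too dim to test. Of all 12630 genes tested, 5.21% were lower and 5.32% higher in the same fit. In RNA from whole cultures, fewer cells of a type and less RNA of a gene per cell cannot be told apart. The part of these marker differences in the results below was not tested. The 6 arrays were also cut at the median of their mean log2 signal over the spike control probe sets of the array. Control 1, control 2 and resveratrol 1 had brighter spikes, from 10.74 to 11.03. Control 3, resveratrol 2 and resveratrol 3 had dimmer ones, from 10.01 to 10.29. Such a cut always puts 3 arrays on each side. The median of each arm is also given within the brighter and the dimmer arrays. Within the brighter arrays, resveratrol 1 alone was set against control 1 and control 2. Within the dimmer ones, resveratrol 2 and resveratrol 3 were set against control 3 alone.

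Of the genes of the list that passed the test, most were lower on the resveratrol arrays. A gene was represented by its brightest probe set, and a change was called at an adjusted p under 0.05 in a limma fit over all probe sets tested. Of the 30 genes tested, 16 were lower, 2 were higher and 12 did not pass, where 10.5% of all 12630 genes tested were called, 5.21% lower and 5.32% higher. The list was chosen with earlier results of these data known. Its shares beside those of all genes are thus a description and not a test of these pathways. All 3 resveratrol arrays lay below all 3 control arrays for 19 of the 30 genes, against 13.7% of all genes tested, and above them for 2, against 16.5%. The median log2 change over the 30 genes was -0.45, and 26 of them were below 0, where the median of all genes tested was 0.02. Glycolysis had 8 of 13 tested genes lower and 1 higher, lactate formation and export 3 of 4 lower, glycogen 5 of 9 lower and 1 higher, and the pentose phosphate pathway 0 of 4 lower or higher. At an unadjusted p under 0.05, which 25.8% of all genes tested reached, the pentose phosphate pathway had 1 of 4 genes, Pgd.

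**Figure D1:**
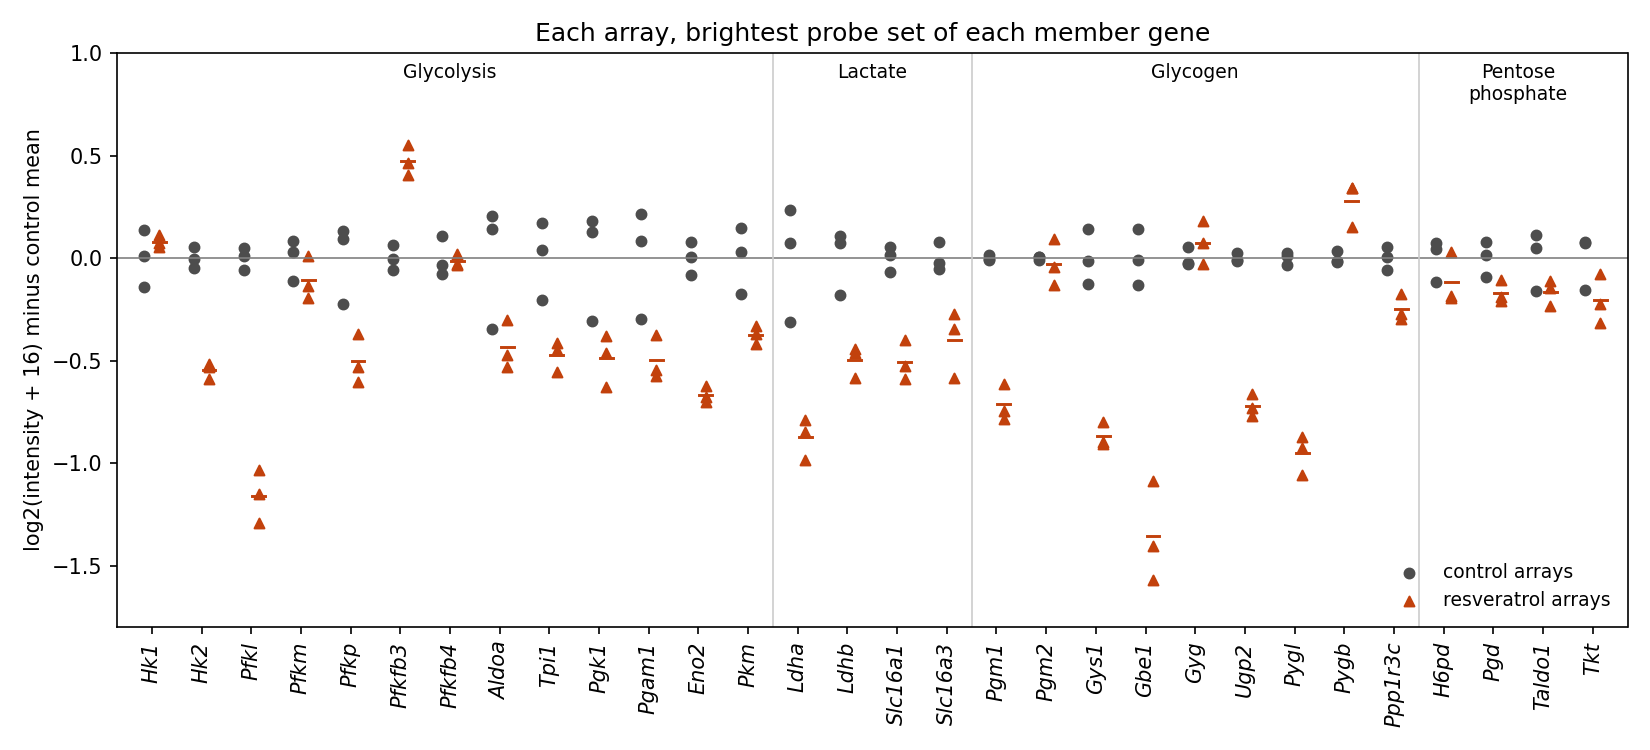
Level of each tested gene on each array as log2(intensity + 16) minus the mean of the 3 control arrays. Circles are control arrays, triangles are resveratrol arrays and short bars are resveratrol means. The triangles lie below all circles for 19 genes, and above all circles for Pfkfb3 and Pygb alone.

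**Figure D2:**
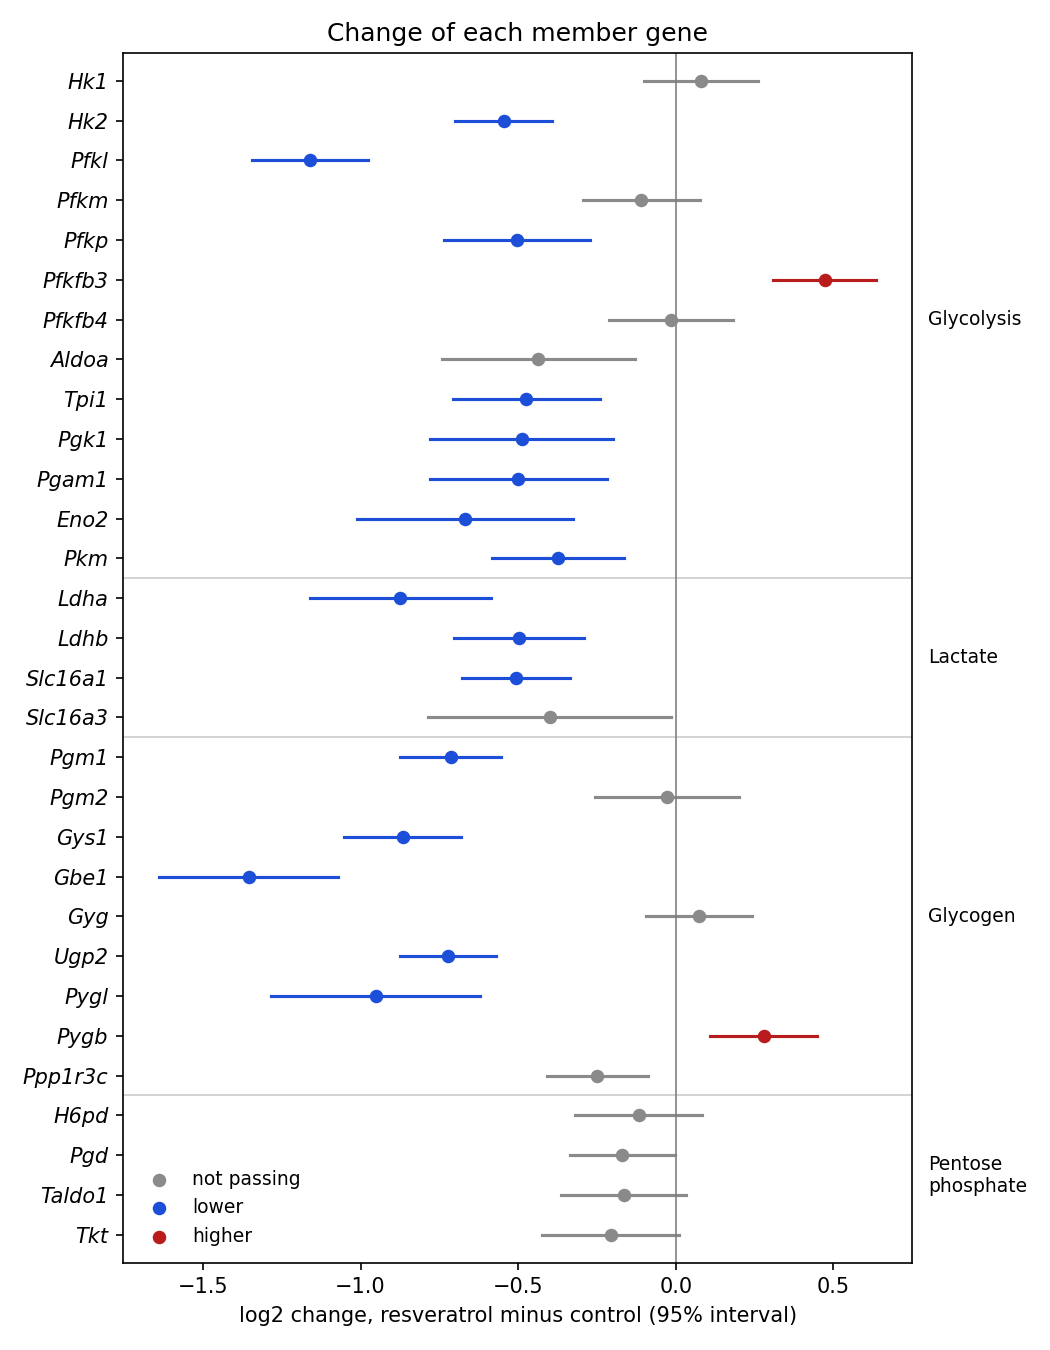
Log2 change of each tested gene, resveratrol minus control, with its 95% interval from the limma fit. Genes called lower are blue, genes called higher red and genes that did not pass grey. The 5 blue genes of the glycogen arm run from -0.71 to -1.36, and the 4 pentose phosphate genes are grey.

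The sequence before the start of a gene shows how often the letters bound by the hypoxia-inducible factors occur among these genes. The 250 bases before each RefSeq start (build GRCm38.p6) were searched on both strands for ACGTG and GCGTG. The E-box, CACGTG, holds ACGTG on both strands. Of the 38 genes listed, 18 (47.4%) held ACGTG in at least 1 window and 32 (84.2%) held either motif. The same shares were 18.5% and 41.5% of all 27025 genes with a window, and 24.7% and 59.7% of the 10149 matched genes tested on the array. Among the 16 genes called lower, 9 (56.2%) held ACGTG and 12 (75%) held either. Among the 12 that did not pass, 5 (41.7%) held ACGTG and 11 (91.7%) held either. A gene with more windows had more sequence searched. The 38 genes listed had 55 windows, against 32851 for the 27025 genes and 12978 for the 10149. The 16 genes called lower had 19 windows, and the 12 that did not pass also had 19. The part of the number of windows in these shares was not tested. A match is a description of the letters and not a binding site. The windows of 8 genes, chosen after their values were seen, are printed below, and capitals mark ACGTG or GCGTG on either strand. Pfkl, Ldha and Gbe1 had the lowest change of the glycolysis, lactate and glycogen arms, Pfkfb3 and Pygb were the genes called higher, and Hk2, Slc16a1 and Pgm1 are further genes called lower whose windows hold ACGTG. Eno2, Tpi1 and Gys1, also called lower, held neither motif and are not printed. For Ldha and Pfkfb3, 1 of 2 windows is shown.
Pfkl chr10:78009808-78010057 (- strand): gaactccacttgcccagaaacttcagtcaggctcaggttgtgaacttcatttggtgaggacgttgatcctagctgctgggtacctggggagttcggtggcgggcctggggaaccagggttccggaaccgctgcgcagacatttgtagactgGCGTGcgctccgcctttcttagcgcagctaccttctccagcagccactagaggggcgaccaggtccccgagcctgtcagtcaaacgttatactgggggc
Hk2 chr6:82774455-82774704 (- strand): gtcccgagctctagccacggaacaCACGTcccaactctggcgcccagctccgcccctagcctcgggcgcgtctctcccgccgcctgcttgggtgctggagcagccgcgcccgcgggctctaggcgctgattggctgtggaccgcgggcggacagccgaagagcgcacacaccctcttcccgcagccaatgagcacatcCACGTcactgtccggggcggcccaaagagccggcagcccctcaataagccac
Ldha chr7:46845554-46845803 (+ strand): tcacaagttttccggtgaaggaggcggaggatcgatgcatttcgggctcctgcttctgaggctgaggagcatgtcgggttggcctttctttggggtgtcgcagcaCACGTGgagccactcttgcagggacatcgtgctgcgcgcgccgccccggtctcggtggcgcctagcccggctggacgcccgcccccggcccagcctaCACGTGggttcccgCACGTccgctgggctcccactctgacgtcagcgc
Slc16a1 chr3:104638414-104638663 (+ strand): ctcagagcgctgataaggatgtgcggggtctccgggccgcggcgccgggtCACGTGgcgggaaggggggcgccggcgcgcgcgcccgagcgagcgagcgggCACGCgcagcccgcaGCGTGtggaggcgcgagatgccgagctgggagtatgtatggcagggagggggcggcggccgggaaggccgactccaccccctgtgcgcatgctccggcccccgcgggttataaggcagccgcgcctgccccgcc
Pgm1 chr4:99929201-99929450 (+ strand): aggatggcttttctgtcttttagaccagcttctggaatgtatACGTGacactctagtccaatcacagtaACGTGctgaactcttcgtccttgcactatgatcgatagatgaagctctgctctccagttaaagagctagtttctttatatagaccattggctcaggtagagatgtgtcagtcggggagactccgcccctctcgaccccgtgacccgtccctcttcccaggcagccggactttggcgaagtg
Gbe1 chr16:70313699-70313948 (+ strand): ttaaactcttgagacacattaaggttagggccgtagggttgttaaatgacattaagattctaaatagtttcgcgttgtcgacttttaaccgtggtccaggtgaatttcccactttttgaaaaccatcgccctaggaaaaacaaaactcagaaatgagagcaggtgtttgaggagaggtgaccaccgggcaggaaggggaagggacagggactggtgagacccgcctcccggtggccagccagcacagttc
Pfkfb3 chr2:11502091-11502340 (- strand): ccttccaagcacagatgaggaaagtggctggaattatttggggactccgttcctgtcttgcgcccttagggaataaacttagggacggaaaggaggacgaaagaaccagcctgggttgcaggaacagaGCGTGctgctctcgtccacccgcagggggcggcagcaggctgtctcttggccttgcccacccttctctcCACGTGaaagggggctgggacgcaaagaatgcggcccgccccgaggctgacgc
Pygb chr2:150786546-150786795 (+ strand): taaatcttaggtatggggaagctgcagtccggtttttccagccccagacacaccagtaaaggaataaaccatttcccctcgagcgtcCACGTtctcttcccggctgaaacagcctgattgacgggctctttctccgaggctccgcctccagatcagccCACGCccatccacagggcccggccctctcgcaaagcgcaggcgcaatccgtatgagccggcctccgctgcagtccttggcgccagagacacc
The Ldha window held CACGTG at 2 places and ACGTG at 1 further place, and the Slc16a1 and Pfkfb3 windows each held CACGTG once. Counting every window, CACGTG occurred in 15.8% of the 38 genes listed, 6.86% of all genes and 9.56% of the matched genes tested. It occurred in 12.5% of the genes called lower and 16.7% of those that did not pass. The Pfkl window held GCGTG and no ACGTG, and the Gbe1 window held neither motif. Pfkfb3 and Pygb, which were higher with resveratrol, held both motifs in these windows.

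In glycolysis, the entry and commitment steps showed both the largest decrease of the arm and its only increase. Hexokinase traps glucose in the cell by phosphorylating it. Hk2, the insulin-responsive hexokinase whose promoter window is printed above, had intensities of 1389, 1295 and 1332 on the control arrays and 883, 932 and 920.3 on the resveratrol arrays. All 3 resveratrol arrays were below all 3 control arrays, and the mean fell from 1339 ± 47.6 to 912 ± 25.2 (mean ± SD, n = 3), or a log2 change of -0.55 ± 0.07 (SE, adjusted p = 0.000874). Hk1, the widely expressed hexokinase, did not pass at 686 and 724, a log2 change of 0.08 with a 95% interval of -0.10 to 0.26.

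Phosphofructokinase commits sugar to glycolysis and has liver, muscle and platelet forms. Pfkl, the liver form, had 2614, 2677 and 2487 on the control arrays and 1259, 1158 and 1048 on the resveratrol arrays. The groups were far apart, and the mean fell from 2593 ± 96.9 to 1155 ± 106 (mean ± SD, n = 3), or a log2 change of -1.16 ± 0.08 (SE, adjusted p = 1.57e-05). A further probe set of Pfkl was lower at -1.32 (adjusted p = 9.2e-06), while a dim one at 46.8 and 45.9 had -0.02 (adjusted p = 0.967). Pfkp, the platelet form, had 566, 582 and 451 on the control arrays and 406, 362 and 343 on the resveratrol arrays. Its arrays did not overlap, and its log2 change was -0.50 ± 0.11 (SE, adjusted p = 0.0147), while its dimmer probe sets had -0.38 (adjusted p = 0.0931) and -0.26 (adjusted p = 0.511). Pfkm, the muscle form, did not pass at 623 and 577, with -0.11 (adjusted p = 0.518) and a 95% interval of -0.29 to 0.08.

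Pfkfb3 and Pfkfb4 make and break down the fructose bisphosphate that activates phosphofructokinase, and Pfkfb3 is the form that mainly makes it. Pfkfb3 moved against its arm, with 699.6, 727 and 764 on the control arrays and 1077, 969.9 and 1013 on the resveratrol arrays. Every resveratrol array was above every control array, and the mean rose from 730.2 ± 32.1 to 1020.1 ± 54.0 (mean ± SD, n = 3), or a log2 change of 0.47 ± 0.07 (SE, adjusted p = 0.00308). Its other probe set, at 123 and 148, had 0.25 (adjusted p = 0.270). Pfkfb4 had 204 and 201 and a log2 change of -0.01 (adjusted p = 0.953), with a 95% interval of -0.21 to 0.18.

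From aldolase to pyruvate kinase, 5 of the 6 genes tested were lower, with log2 changes from -0.67 to -0.37, and Aldoa did not pass by its brightest probe set. Aldolase A, which splits the phosphorylated sugar, had 5 probe sets with log2 changes from -0.71 to -0.21, of which 2 passed, at -0.71 (adjusted p = 0.00717) and -0.51 (adjusted p = 0.0346). The brightest had -0.44 (adjusted p = 0.0833). Aldoc, the brain form, was too dim to test at 17.8 and 21.0. Tpi1, which interconverts the triose phosphates, had 6088, 6669.8 and 5142 on the control arrays and 4441, 4349 and 4026 on the resveratrol arrays. The groups did not overlap, and its log2 changes were -0.47 ± 0.11 (SE, adjusted p = 0.0198), -0.55 (adjusted p = 0.00618) and -0.61 (adjusted p = 0.00452) in 3 probe sets.

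Gapdh, the glyceraldehyde phosphate dehydrogenase often used as a reference gene, was named alone only by 3 control probe sets of the array, which lie along its transcript. The probe set at the 3′ end had 8583, 9956 and 6241 on the control arrays and 6379.7, 5496 and 5645 on the resveratrol arrays. Control 3 lay below resveratrol 1, so the groups overlapped, with exact permutation p = 0.2 for each of the 3 probe sets. Kept among the probe sets tested, an alternative chosen after seeing the data, they had log2 changes of -0.48 (adjusted p = 0.0820), -0.45 (adjusted p = 0.104) and -0.39 (adjusted p = 0.207) from the 3′ end to the 5′ end. With the spike split as a block they had -0.35 (adjusted p = 0.0491), -0.32 (adjusted p = 0.0657) and -0.24 (adjusted p = 0.160), so the first alone passed. The ratio of the 3′ to the 5′ Gapdh probe set, a measure of RNA integrity, was 0.812 ± 0.0181 in control and 0.764 ± 0.0324 in resveratrol arrays (SD, n = 3, exact permutation p = 0.1, the smallest that 3 against 3 arrays can give). The same ratio for Actb was 1.25 ± 0.0181 and 1.24 ± 0.0473 (exact permutation p = 0.8).

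Pgk1, phosphoglycerate kinase and the first ATP-yielding step, is given in full although its p was not among the smallest of its arm, a choice made after its values were seen. Its brightest probe set had 8898, 9233 and 6580.4 on the control arrays and 6261, 5268 and 5913 on the resveratrol arrays. Control 3 lay lowest among the controls but above all resveratrol arrays, and the log2 change was -0.49 ± 0.13 (SE, adjusted p = 0.0446). The other probe sets were lower at -0.75 (adjusted p = 0.00376) and -1.12 (adjusted p = 1.5e-05), the latter at 1499 and 683. Pgam1, phosphoglycerate mutase, had 6957, 7632 and 5346 on the control arrays and 5068, 4407 and 4489 on the resveratrol arrays. Its groups did not overlap, and the log2 change was -0.50 ± 0.13 (SE, adjusted p = 0.0360).

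Eno2, the neuronal form of enolase, had 39.6, 46.1 and 43.1 on the control arrays and 20.8, 20.2 and 22.2 on the resveratrol arrays. The groups were apart but dim, so the size of the change of -0.67 ± 0.16 (SE, adjusted p = 0.0242) depends on the offset, from -0.99 (adjusted p = 0.0282) with an offset of 1 to -0.33 (adjusted p = 0.0221) with 64. Pkm, pyruvate kinase, had 4325, 4705 and 3757 on the control arrays and 3373, 3166 and 3274 on the resveratrol arrays. All resveratrol arrays were below all control arrays, with a log2 change of -0.37 ± 0.10 (SE, adjusted p = 0.0348).

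The brightest probe sets of the array were examined apart. Of all 353 tested probe sets with a mean above 4000, 6.8% were lower and 0 were higher, with a median log2 change of -0.09. That median was 0.02 after quantile normalization, and -0.08 and 0.10 on the arrays with brighter and with dimmer spikes. Of the 12 such probe sets of the list, 9 were lower, with a median of -0.51. The median of these 12 was -0.41 after quantile normalization, and -0.60 and -0.28 in the same order of spikes. The count of 8 glycolysis genes called lower was 4 without control 1, 2 without control 2, 3 without resveratrol 1, and 2 without resveratrol 2 or resveratrol 3. Over all genes tested, the 658 called lower became 391 to 557 in these fits. Hk2, Pfkl and Pfkfb3 passed in every alternative run, and Pfkp, Tpi1, Pgk1, Pgam1, Eno2 and Pkm each lost the call in 4 to 8 of them. The median change of the arm was -0.48 within the brighter arrays and -0.24 within the dimmer ones.

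**Figure D3:**
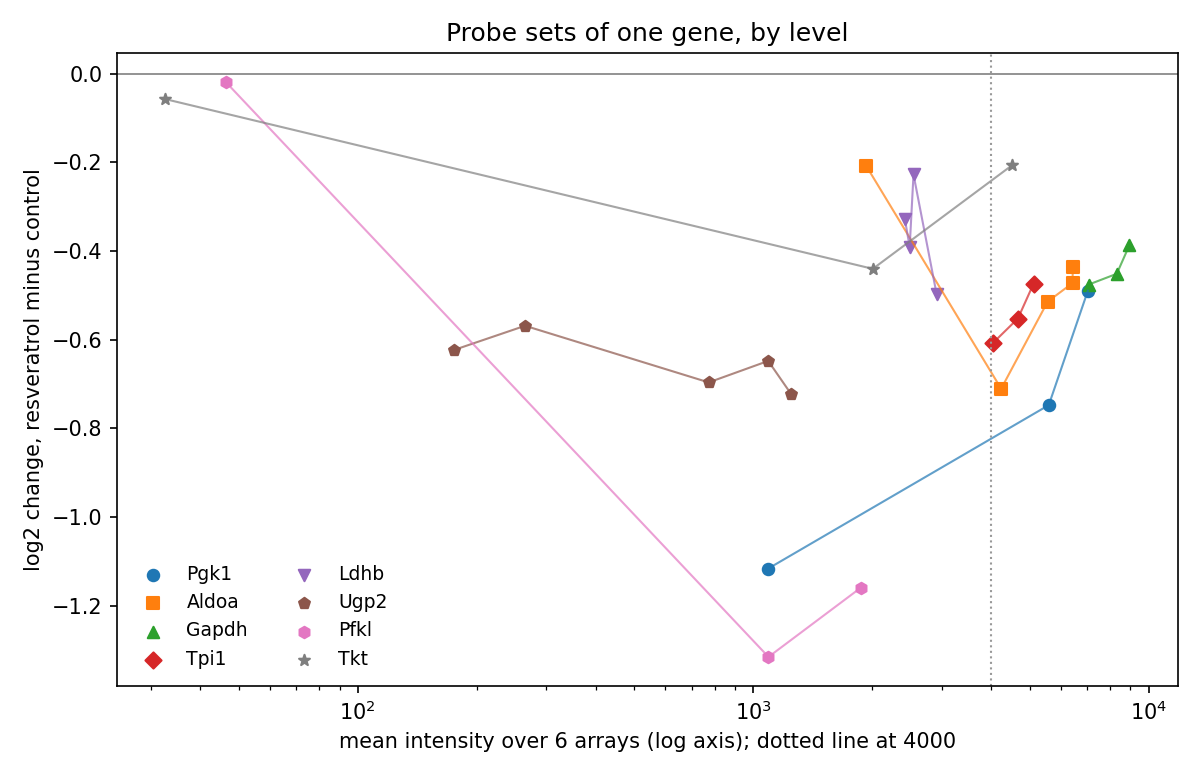
Log2 change, resveratrol minus control, of each probe set of 8 genes against its mean intensity over the 6 arrays on a log axis, with the probe sets of a gene joined and a dotted line at 4000. The probe sets of Pgk1 run from -0.49 at the bright end to -1.12 at the dim end, while those of Ugp2 stay between -0.72 and -0.57.

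Of the 4 genes for making and moving lactate, 3 were lower and Slc16a3 did not pass. Lactate dehydrogenase A, whose subunit favours lactate formation, had 7988, 8923 and 6110.2 on the control arrays and 4374, 4208 and 3819 on the resveratrol arrays. Even the lowest control array was above the highest resveratrol array, and Ldha fell from 7674 ± 1432 to 4134 ± 285 (mean ± SD, n = 3), or a log2 change of -0.87 ± 0.13 (SE, adjusted p = 0.00230). Ldhb, the subunit that favours the reverse reaction, had 3579.5, 3659.6 and 2999 on the control arrays and 2263, 2461 and 2498 on the resveratrol arrays. These arrays did not overlap, with a log2 change of -0.50 ± 0.09 (SE, adjusted p = 0.00852), and its other probe sets had -0.39 (adjusted p = 0.0222), -0.33 (adjusted p = 0.102) and -0.23 (adjusted p = 0.377).

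Monocarboxylate transporters carry lactate together with a proton. Slc16a1, the widely expressed monocarboxylate transporter, had 793, 748 and 815 on the control arrays and 516, 590.1 and 539.5 on the resveratrol arrays. All resveratrol arrays were lower, and the mean fell from 785 ± 34.4 to 548 ± 38.0 (mean ± SD, n = 3), or a log2 change of -0.51 ± 0.08 (SE, adjusted p = 0.00275). Slc16a3, the transporter of strongly glycolytic cells, was dim, with 28.1, 27.2 and 31.3 on the control arrays and 13.9, 21.1 and 19.3 on the resveratrol arrays. Its arrays did not overlap, but the log2 change of -0.40 (adjusted p = 0.209) did not pass. The lactate arm had medians of -0.62 and -0.45 within the brighter and dimmer arrays, and Ldha, Ldhb and Slc16a1 each passed with any 1 array left out.

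Of the other lactate genes, 4 were tested and 1 was lower, where 5.21% of all genes tested were lower. Bsg, basigin, the chaperone that carries the monocarboxylate transporters to the cell surface, had 3486, 3528 and 2965 on the control arrays and 2024, 1909 and 1957 on the resveratrol arrays. The groups were well separated, with a log2 change of -0.75 ± 0.09 (SE, adjusted p = 0.000446). Mpc1, a subunit of the carrier that takes pyruvate into mitochondria, had 3049 and 2637 and -0.21 (adjusted p = 0.114).

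The glycogen arm held the lowest change of the list, that of Gbe1, and 4 of its 5 genes called lower (Pgm1, Ugp2, Gys1 and Gbe1) lie on the path from glucose phosphate to glycogen. Phosphoglucomutase turns glucose phosphate towards glycogen. Pgm1 is the gene on chromosome 4 in the RefSeq table, since older usage exchanged the names of this pair, and it had 1337, 1356 and 1330.3 on the control arrays and 794, 872 and 772 on the resveratrol arrays. The control arrays differed little and lay above all resveratrol arrays, with a log2 change of -0.71 ± 0.07 (SE, adjusted p = 0.000198), while a dim probe set had -0.52 (adjusted p = 0.0969). Pgm2, on chromosome 5, had 128 and 125 and -0.03 (adjusted p = 0.920), with a 95% interval of -0.26 to 0.20.

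Ugp2, which makes the activated UDP-glucose, had 1539, 1581 and 1547 on the control arrays and 929, 906 and 977 on the resveratrol arrays. The groups did not overlap, the log2 change was -0.72 ± 0.07 (SE, adjusted p = 0.000134), and all 5 of its probe sets were lower, between -0.72 and -0.57. Gys1, the glycogen synthase of muscle and fat, had 944, 847 and 781 on the control arrays and 452, 485 and 449 on the resveratrol arrays. The lowest control array was well above the highest resveratrol array, and the mean fell from 857 ± 82.1 to 462 ± 20.0 (mean ± SD, n = 3), or a log2 change of -0.87 ± 0.08 (SE, adjusted p = 0.000141), with -0.70 (adjusted p = 0.00113) in its other probe set. Gbe1, the branching enzyme, had 324, 290.5 and 265 on the control arrays and 100.4, 87.8 and 129 on the resveratrol arrays. The groups were far apart, and the mean fell from 293 ± 29.6 to 106 ± 21.0 (mean ± SD, n = 3), or a log2 change of -1.36 ± 0.13 (SE, adjusted p = 0.00013). Gyg, glycogenin, the protein primer on which glycogen starts, did not pass in either probe set, at 0.07 (adjusted p = 0.655) and 0.07 (adjusted p = 0.679).

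Glycogen phosphorylase, which releases glucose from glycogen, went in opposite directions in its 2 measurable forms. Pygl, the liver form, was dim and fell from 56.1 ± 1.49 to 21.3 ± 2.46 (mean ± SD, n = 3), or a log2 change of -0.95 ± 0.15 (SE, adjusted p = 0.00322). Its size ran from -1.36 (adjusted p = 0.00433) with an offset of 1 to -0.49 (adjusted p = 0.00258) with 64. Pygb, the brain form, moved against its arm, with 1103, 1061 and 1063 on the control arrays and 1367, 1369 and 1198 on the resveratrol arrays. Every resveratrol array was above every control array, but the log2 change of 0.28 ± 0.08 (SE, adjusted p = 0.0488) was near the threshold and lost the call without any 1 of control 1, control 2, control 3, resveratrol 1 or resveratrol 2, with adjusted p from 0.0723 to 0.181. Pygm, the muscle form, was too dim to test at 6.34 and 9.40.

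Ppp1r3c, which brings a phosphatase to glycogen and so activates glycogen synthase, had 1260.3, 1165 and 1220.3 on the control arrays and 1003, 1074 and 986 on the resveratrol arrays. These arrays did not overlap, yet -0.25 (adjusted p = 0.0602) did not pass, and its other probe set had -0.09 (adjusted p = 0.730). The medians of the glycogen arm were -0.74 within the brighter arrays and -0.69 within the dimmer ones, and Pgm1, Ugp2, Gys1, Gbe1 and Pygl each passed with any 1 array left out.

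Of the other glycogen and galactose genes, 15 were tested, and 2, Ppp1r3b and Ppp1r3d, were lower and 0 higher. Of all genes tested, 5.21% were lower and 5.32% higher. Ppp1r3b and Ppp1r3d are both targeting subunits of the same phosphatase. Ppp1r3b fell from 92.7 ± 8.50 to 18.4 ± 14.8 (mean ± SD, n = 3), or a log2 change of -1.74 ± 0.25 (SE, adjusted p = 0.00174). Its resveratrol arrays were dim, so the size ran from -2.54 (adjusted p = 0.00560) with an offset of 1 to -0.94 (adjusted p = 0.000618) with 64. Ppp1r3d fell from 444 ± 22.4 to 234 ± 26.9 (mean ± SD, n = 3), or a log2 change of -0.89 ± 0.09 (SE, adjusted p = 0.000238). Their arrays did not overlap in either case. Gsk3a and Gsk3b, the kinases that inactivate glycogen synthase, had -0.18 (adjusted p = 0.407) and -0.10 (adjusted p = 0.617).

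No pentose phosphate gene passed by its brightest probe set, and the 4 log2 changes lay between -0.21 and -0.12. Pgd, phosphogluconate dehydrogenase, an NADPH-yielding step, had 1641, 1566 and 1453 on the control arrays and 1359, 1438 and 1339 on the resveratrol arrays. Its arrays did not overlap, and the log2 change was -0.17 (adjusted p = 0.224) with a 95% interval of -0.34 to -0.00. H6pd, which works on glucose phosphate in the endoplasmic reticulum, had -0.12 (adjusted p = 0.522) and an interval of -0.32 to 0.08. Taldo1, transaldolase, had 3132 and 2784 and -0.16 (adjusted p = 0.328).

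Tkt, transketolase, exchanges carbon between sugar phosphates and links the pathway to glycolysis. Its brightest probe set had 5094, 5081 and 4330.3 on the control arrays and 4119, 4562 and 3873 on the resveratrol arrays, with groups that overlapped and -0.21 (adjusted p = 0.255). A second probe set had 2528, 2355 and 2068 on the control arrays and 1731, 1713 and 1651 on the resveratrol arrays. These arrays did not overlap, and this probe set was lower at -0.44 (adjusted p = 0.0102), so the call on Tkt depended on the probe set. A dim probe set had -0.06 (adjusted p = 0.889). The medians of the arm were -0.21 within the brighter arrays and -0.05 within the dimmer ones.

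Among 8 other pentose phosphate genes tested, 1 was higher and 0 were lower, where 5.32% and 5.21% of all genes tested were. Prps1, which makes the activated ribose for nucleotides, rose from 835 ± 39.1 to 1132 ± 55.1 (mean ± SD, n = 3), or a log2 change of 0.43 ± 0.07 (SE, adjusted p = 0.00492), and Prps2 had 0.27 (adjusted p = 0.0821). Of 10 other genes listed under glycolysis and tested, 0 were called in either direction, and the median log2 change was -0.00. An unadjusted p under 0.05 in limma was reached by 4 of these, and by 25.8% of all genes tested. Of the 4, 3 were higher (Eno3, Pgam5 and Minpp1) and 1 lower (Gapdhs). Among 5 genes of gluconeogenesis tested, 1 was lower, where 5.21% of all genes tested were. Pck1, the phosphoenolpyruvate carboxykinase of fat and liver, fell from 78.1 ± 3.45 to 9.03 ± 2.86 (mean ± SD, n = 3), or a log2 change of -1.92 ± 0.16 (SE, adjusted p = 5.09e-05). Its resveratrol arrays were dim as well, and the size ran from -3.02 (adjusted p = 0.000194) with an offset of 1 to -0.96 (adjusted p = 3.11e-05) with 64. Pcx, pyruvate carboxylase, had -0.31 (adjusted p = 0.0735). Over all 42 other genes of these pathways tested, 4 were lower and 1 higher, with a median of -0.03. Of all genes tested, 5.21% were lower and 5.32% higher.

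Genes of the same enzyme or transporter family, which need not do the same step, were compared directly by the difference of their log2 values on each array. Of the 10 pairs that could be computed, 8 had both genes tested. The smallest two-sided exact permutation p that 3 against 3 arrays allow is 0.1, or 0.125 after adjustment over the pairs, so no pair can pass 0.05 and the arrays are described. In 7 of the 8 pairs with both genes tested, the differences on the resveratrol arrays did not overlap those on the control arrays. The share of other gene pairs that do so was not computed, so this count cannot be weighed. For single genes, all resveratrol arrays lay below all control arrays for 13.7% of all genes tested, and above for 16.5%. On the log2 scale the difference of the changes was -0.63 ± 0.12 (SE) for Hk2 minus Hk1 and -0.38 ± 0.12 for Ldha minus Ldhb. It was 1.05 ± 0.07 for Pfkm minus Pfkl and, for Pfkp minus Pfkl, 0.66 ± 0.09, which became 0.72 and 0.45 when all probe sets of a gene were averaged. The difference of Pfkfb4 minus Pfkfb3 was -0.49 ± 0.10. In the glycogen arm, the difference was 0.69 ± 0.12 for Pgm2 minus Pgm1 and 1.23 ± 0.10 for Pygb minus Pygl. The exact permutation p was 0.1 for each of these 7 pairs. Slc16a3 minus Slc16a1 was 0.11 ± 0.06 with overlapping arrays and exact permutation p = 0.3, and it was -0.14 with an offset of 1. The pairs with a form too dim to test are given as values alone, with 0.54 ± 0.40 for Aldoc minus Aldoa (exact permutation p = 0.3) and 1.13 ± 0.24 for Pygm minus Pygl (exact permutation p = 0.1).

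**Figure D4:**
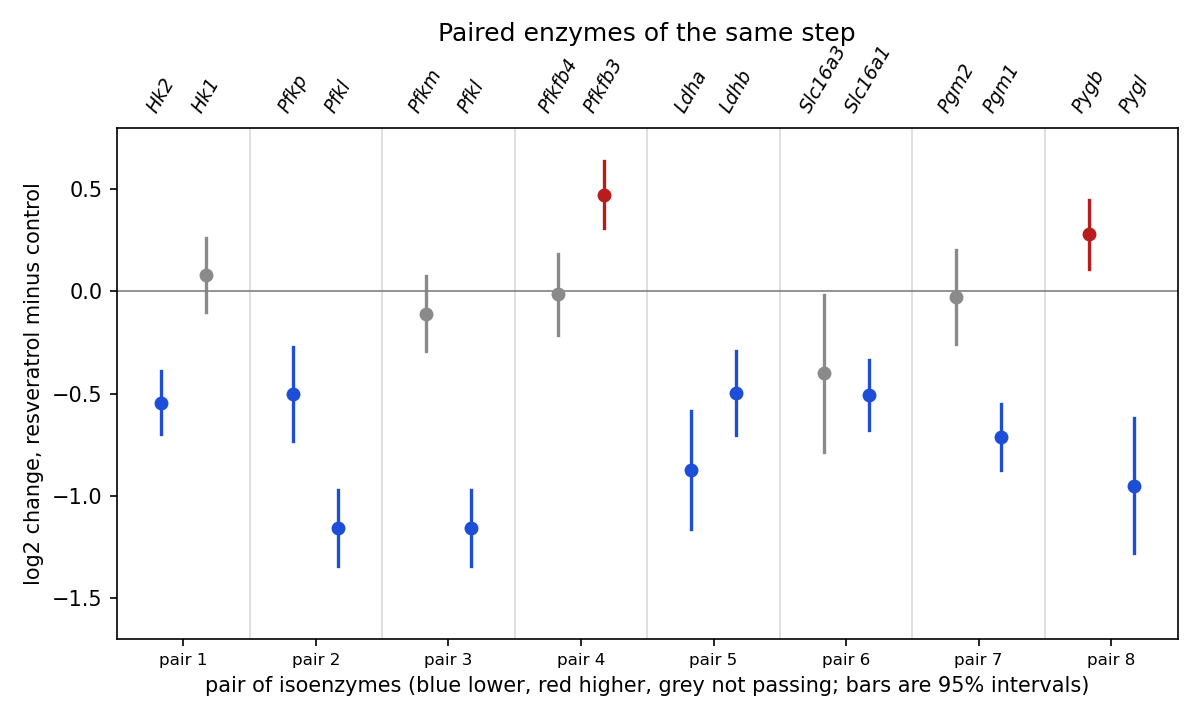
Log2 change, resveratrol minus control, of the members of 8 pairs of genes of the same enzyme or transporter family, with 95% intervals from the limma fit. Genes called lower are blue, genes called higher red and genes that did not pass grey. Pygb and Pygl, at 0.28 and -0.95, lie on opposite sides of 0.

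Of 60 probe sets of the list that were tested, 30 were lower and 2 higher, where 8.17% of all 27022 probe sets were called, 4.22% lower and 3.95% higher. No gene had tested probe sets called in opposite directions. The medians per array show how the arrays varied, as log2 values minus the control mean. They were -0.37, -0.51 and -0.47 on the 3 resveratrol arrays for glycolysis, where the control arrays ran from -0.08 to 0.13. The lactate arm had -0.59, -0.43 and -0.48, with control arrays from -0.06 to 0.04. The glycogen arm had -0.73, -0.61 and -0.66, with control arrays from -0.01 to 0.04. For the pentose phosphate arm the values were -0.15, -0.13 and -0.22, with control arrays from -0.12 to 0.08. All 3 resveratrol arrays were thus below all 3 control arrays in each arm, by a small margin in the last.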

How the data were processed

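The authors deposited 1 linear intensity for each probe set and array, as the values show, summarised by software not given in the sources used here. The trimmed mean (2% at each end) was 150 on every array, which 1 scaling factor per array would give. Total RNA was extracted with Trizol, per the labels' protocols.

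Values were used as log2(intensity + 16), which understates changes of dim probe sets. Of the probe sets other than the 64 array controls, the 60% with the highest mean log2 value were tested. The groups were compared in limma 3.58.1 (R 4.3.3; lmFit and eBayes with an intensity trend), with Benjamini-Hochberg adjustment over all probe sets tested. Exact permutation tests, promoter searches (Python 3.11.15) and plots (matplotlib 3.10.9) followed. The number of arrays limits the precision. Names came from the platform annotation and promoters from RefSeq (GRCm38.p6). The members, marker lists and pathway lists were chosen with earlier results of these data known. Per-array values are given for called genes with the smallest p, up to 8 in glycolysis and 4 in each other arm, and for genes that moved against their arm. Those of Pgk1, Slc16a3, Ppp1r3c, Pgd, Tkt, Gapdh and Bsg were added after their values were seen.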

Additional observations from a re-analysis of the deposited data

How the results depend on the processing

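The changes of the 30 genes tested and the counts of calls were recomputed under up to 20 alternatives (19 for 7 genes), and the gene pairs under fewer. No called gene changed direction. Pfkfb4 and Pgm2, never called, ran from -0.05 to 0.04 and from -0.09 to 0.03. Of 593 gene values, 534 kept their side of the threshold, 51 lost the call and 8 gained it. Of the 18 genes called, 10 kept the call wherever measured (Hk2, Pfkl, Pfkfb3, Ldha, Slc16a1, Pgm1, Gys1, Gbe1, Ugp2 and Pygl). The share of all called genes that did so is not given here. Genes called went from 18 to 11 without the intensity trend, with 10 lower and 1 higher, 21 probe sets in place of 32 and 3 glycolysis genes lower in place of 8. Over all 12630 genes tested, calls went from 1330 to 518. Without the filter on dim probe sets 3 glycolysis genes were lower and 1 gene was higher, and with an offset of 1 also 1 gene was higher. Over all genes, 848 of 18193 were called without the filter and 1286 of 12630 with that offset. Leaving out 1 array gave 11 to 17 genes called, 10 to 16 lower and 1 to 2 higher, and 2 to 8 glycolysis genes lower. Over all genes tested, 694 to 1170 were called in these fits, against 1330 with all arrays. When all probe sets of a gene were averaged 9 other pathway genes were called in place of 5. A count over all genes is not given for that setting. Without probe sets above 4000, or without those whose probes can match other sequences, 1 pentose phosphate gene, Tkt, was lower. Over all genes, 668 of 12550 and 667 of 12304 were lower with these settings. The replicate numbers are shared by the groups, but correlations of -0.06, -0.02 and 0.09 between same-numbered arrays give no pairing. With the replicate block 14 genes were called, 13 lower and 1 higher, and 5 in glycolysis were lower. The same block gave 1128 calls over all genes tested. With the spike split as a block 19 genes were called, and 1136 over all genes tested, and with quantile normalization 20 and 1497. Aldoa then passed at -0.32 (adjusted p = 0.0383) and -0.33 (adjusted p = 0.00067). The pairs with Eno1 and G6pdx could not be computed. The cause of these differences between alternatives was not tested.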

Other observations

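Further probe sets name Gapdh together with its pseudogenes and so were not used above. The one that names Gapdh and Gapdh-ps15 had 495, 637 and 652 on the control arrays and 274, 313 and 233 on the resveratrol arrays. These arrays did not overlap, and its log2 change was -1.08 (adjusted p = 0.000441). A second probe set of the same names, at 211 and 145, had -0.46 (adjusted p = 0.129). A bright one that names Gapdh with several similar genes had -0.29 (adjusted p = 0.423), and -0.41 and 0.16 on the arrays with brighter and with dimmer spikes. Signal of Gapdh and of its copies cannot be told apart in these probe sets.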
